A study of Mus musculus with 12 samples.

Results

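Hepatokines are proteins that hepatocytes release into the blood and that act on other tissues or on the liver itself. The transcripts of 9 secreted hepatokines were followed here, chosen by gene symbol from the 55357 genes of the count table: Fgf21, Gdf15, Angptl4, Angptl6, Angptl8, Fetub, Ahsg, Lect2 and Inhbe. Each symbol matched 1 row, and all 9 were among the 17358 genes that passed the filter on low counts. The livers came from male C57BL/6J mice sequenced after 6 weeks on chow or on CDAHFD, a choline-deficient high fat diet with defined amino acids that was fed from 7 to 13 weeks of age. Animals called WT carried PPARα fl/fl with AlbuminCre +/+, and KO animals carried PPARα fl/fl with AlbuminCre Tg/+, so both genotypes held the floxed alleles and the chow groups differed in the Cre transgene. The albumin promoter drives Cre in hepatocytes, and the other cells of a KO liver keep their Ppara. There were 4 libraries of WT chow, 3 of WT CDAHFD, 2 of KO chow and 3 of KO CDAHFD, each taken as 1 sample. The comparisons ask how the genotype, the diet and both together moved these transcripts.

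FGF21 is a fasting and stress hormone that signals through FGF receptors with the co-receptor beta-klotho (Klb), and GDF15 is a stress-induced factor that acts on the hindbrain through GFRAL. Both genes are known targets of the integrated stress response, in which eIF2α phosphorylation raises the translation of ATF4, and Fgf21 and Angptl4 are also known targets of the nuclear receptor PPARα. ANGPTL4 inhibits lipoprotein lipase, and ANGPTL8, which is raised by feeding and insulin, also acts on lipase activity. Fetuin-A (Ahsg) and fetuin-B (Fetub) are abundant plasma proteins of the cystatin superfamily, LECT2 is a leukocyte chemotactic factor, ANGPTL6 is an angiopoietin-related growth factor, and Inhbe encodes the subunit of activin E.

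The 4 groups were not alike in ways that touch every value below. Total counts ran from 29906785 to 43551003. Ppara was at 96.2 to 238 CPM (counts scaled to library size) in WT chow, 59.5 to 75.5 CPM in WT CDAHFD, 14.4 and 38.7 CPM in KO chow and 20.7 to 51.9 CPM in KO CDAHFD, and these counts include reads outside the deleted part. Of the 9 matched hepatocyte markers, each present in every group, 8 were lower in KO chow and 9 in each CDAHFD group than in WT chow, and scaled by library size alone, 0 in KO chow, 7 on CDAHFD in WT and 6 on CDAHFD in KO livers were lower. Their summed level was 96532 to 113098 CPM in WT chow, 77621 and 89874 CPM in KO chow, 49728 to 59698 CPM in WT CDAHFD and 46672 to 61497 CPM in KO CDAHFD. The 12 macrophage markers summed to 413 to 754 CPM in WT chow and to 1538 to 2457 CPM over the libraries of the other groups. The 9 markers of stellate cells and fibroblasts summed to 237 to 342 CPM in WT chow and to 1260 to 2152 CPM elsewhere. In whole liver, fewer cells of a type and less RNA per cell cannot be told apart, and the part of these shifts in the hepatokine values was not tested. The libraries also stood at different phases of the circadian clock. A clock score, the mean log2 CPM of Arntl, Npas2 and Clock minus that of Per3, Nr1d1, Nr1d2, Dbp, Tef and Ciart, was below 0 in WT chow replicates 3 and 4 (-3.33 and -3.32), in KO chow replicate 2 (-1.38) and in KO CDAHFD replicate 3 (-3.74). It was between 1.33 and 3.81 in the other 8 libraries, which were refitted on their own. KO chow then has 1 library, which is assumed to vary like the other groups.

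Differences were tested with the quasi-likelihood model of edgeR, and the Benjamini-Hochberg adjustment covered the 17358 genes. A transcript was called at an adjusted p under 0.05, and SE denotes a standard error on the log2 scale. Against WT chow, KO chow had 39.0% of all genes tested called, WT CDAHFD had 51.1% and KO CDAHFD had 52.4%. KO chow had 2 of the 9 hepatokines higher and 2 lower, beside 22.0% and 17.0% of all genes. WT CDAHFD had 3 higher and 5 lower, beside 26.1% and 25.0%, and KO CDAHFD had 3 of each, beside 26.9% and 25.4%. The median log2 fold change of the 9 was -0.39, -0.60 and -0.36 in this order, beside 0.00, -0.05 and -0.04 over all genes tested. The WT chow libraries enter all 3 comparisons. The groups did not overlap for 4, 7 and 6 hepatokines, where 50.2%, 55.4% and 51.5% of all genes did not overlap. The scaling of the libraries bears on these numbers. Counts were scaled by edgeR's trimmed mean of M-values (TMM), and 56.4%, 51.0% and 51.4% of the calls were then higher. With library size as the only scaling the median of all genes moved to 0.40, 0.51 and 0.57, and 86.0%, 88.6% and 89.9% of the calls were higher. In the same way the share of higher calls moved from 60.7% to 90.0% between KO CDAHFD and KO chow, from 44.2% to 19.1% between KO chow and WT CDAHFD, and from 37.3% to 13.7% for the interaction of genotype and diet. Changes below are relative to the TMM scale.

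**Figure D1:**
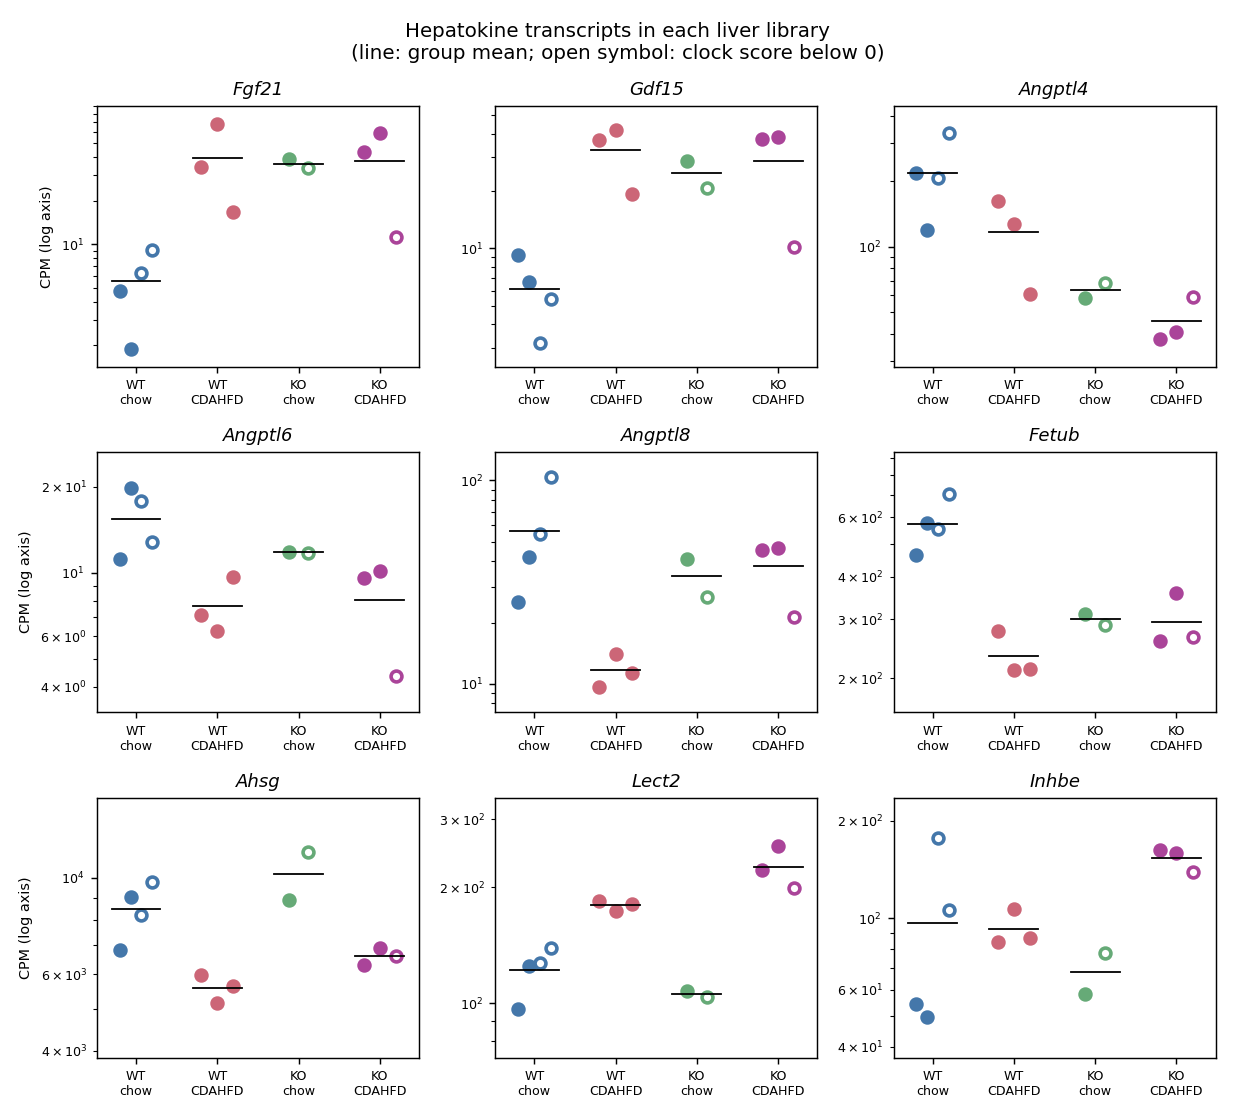
CPM of the 9 hepatokine transcripts on log axes, 1 point per library in the 4 groups, with a line at the group mean and open symbols for the 4 libraries with a clock score below 0. Fgf21 and Gdf15 lie higher in each of the other 3 groups than in any WT chow library, and Angptl8 is lowest in the 3 WT CDAHFD libraries.

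Levels of different genes were compared per length of exon sequence (FPKM). Ahsg stood first in every group, with a mean of 3851 FPKM for WT and 4632 FPKM for KO livers on chow and 2541 FPKM for WT and 3002 FPKM for KO livers on CDAHFD, and made up 87.3% to 94.8% of the summed CPM of the 9 in each library. Fetub came next in WT chow with 293 FPKM, followed by Lect2 with 133, Angptl8 with 65.0, Angptl4 with 61.9, Inhbe with 18.2, Angptl6 with 9.75, Fgf21 with 5.81 and Gdf15 with 3.32. In that order the libraries of Lect2 and Angptl8, of Angptl8 and Angptl4, and of each neighbouring pair from Inhbe to Gdf15 overlapped. Lect2 stood above Fetub in both CDAHFD groups, with 195 against 119 FPKM in WT and 246 against 150 FPKM in KO livers, and these libraries did not overlap. Fgf21 moved from the 8th place in WT chow to the 4th in WT CDAHFD and to the 5th in both KO groups, although its libraries overlapped those of Angptl4 in WT CDAHFD and those of Angptl8 in both KO groups.

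The promoters of these genes are shown for the motifs that a stress-responsive or clock-driven gene may hold. RefSeq promoters on GRCm38.p6 were matched for 8 of the 9 symbols (10 promoters), and the 250 bases before each start were searched on both strands. Angptl4 had no promoter in that set, so it was not searched. TGATGCAA, a composite word for CCAAT/enhancer-binding proteins and ATF4, stood in the promoters of Fgf21, Angptl8 and Inhbe, and in 0.791% of all 32851 promoters. The palindrome CACGTG, an E-box, stood in those of Fgf21 and Gdf15 and in 6.02% of all. TATAAA stood in those of Fgf21 and Fetub and in 12.4% of all. None of the 10 promoters searched held the D-box TTATGTAA (0.819% of all) or the exact direct repeat with 1 spacer base that PPARα binds with RXR (0.0335% of all). For Angptl4, a known PPARα target, this leaves both words unexamined. A match is a description of letters and no sign of binding. The upstream stretch of Fgf21 is printed in full because it holds 3 of the words, in capitals, and lies at chr7:45615491-45615740 on the minus strand.
Fgf21: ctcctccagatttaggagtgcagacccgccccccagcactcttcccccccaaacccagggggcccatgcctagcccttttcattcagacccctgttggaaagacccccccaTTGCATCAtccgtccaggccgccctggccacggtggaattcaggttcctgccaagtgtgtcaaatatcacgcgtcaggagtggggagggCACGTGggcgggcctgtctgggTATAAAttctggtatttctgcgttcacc

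The TGATGCAA word (read as TTGCATCA where it lies on the other strand) is set side by side below for the 3 genes that hold it, since they differ in how they moved. It spans 139 to 132 bases before the start of Fgf21 (the stretch is chr7:45615611-45615640, minus strand), 130 to 123 before that of Angptl8 (chr9:21835369-21835398, plus strand) and 181 to 174 before that of Inhbe (chr10:127352011-127352040, minus strand). The GENCODE M21 model of Inhbe starts further upstream, so the last stretch lies in its annotated exon.
Fgf21: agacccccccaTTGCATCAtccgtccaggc
Angptl8: agccatcagtcTGATGCAAtggctgagcct
Inhbe: catcctctttcTTGCATCAtgcatgtccac

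Fgf21 (ENSMUSG00000030827, chromosome 7 from 45613886 to 45615490) was the hepatokine with the largest change against WT chow in each of the 3 comparisons. It was at 4.74, 1.89, 6.30 and 9.17 CPM on chow in WT livers, and at 34.4, 67.7 and 16.6 CPM in WT CDAHFD. The KO chow libraries held 38.7 and 33.7 CPM, and those of KO CDAHFD 43.8, 58.4 and 11.2 CPM. Every library outside WT chow was above the highest WT chow library, and the spread within the CDAHFD groups was wide, with a coefficient of variation of 65.6% in WT and 64.0% in KO livers. KO chow livers were 6.62-fold higher than WT chow livers (log2 2.73, SE 0.63, adjusted p = 0.00433). The rise was 7.24-fold with CDAHFD alone (log2 2.86, SE 0.59, adjusted p = 0.00142) and 6.92-fold with both (log2 2.79, SE 0.59, adjusted p = 0.00156). In the 8 libraries with a clock score above 0 it was 3.58, 3.61 and 3.98, each called.

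Gdf15 (ENSMUSG00000038508, chromosome 8 from 70629393 to 70632456) was higher in each of the other groups as well. It stood at 9.24, 6.71, 3.20 and 5.41 CPM in WT chow, at 37.2, 41.8 and 19.4 CPM in WT CDAHFD, at 28.7 and 20.8 CPM in KO chow, and at 37.5, 38.6 and 10.2 CPM in KO CDAHFD. As for Fgf21, no library of another group fell into the WT chow range, and KO CDAHFD replicate 3 came closest to it. Gdf15 rose 4.04-fold with the genotype (log2 2.01, SE 0.48, adjusted p = 0.00494), 5.34-fold with the diet (log2 2.42, SE 0.44, adjusted p = 5.77e-04) and 4.69-fold with both (log2 2.23, SE 0.44, adjusted p = 9.54e-04). Its promoter holds CACGTG from 83 to 78 bases before 1 of its 2 RefSeq starts, in its own GENCODE exon.

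For both genes the genotype and the diet did not add up. CDAHFD raised them in WT livers, but between KO CDAHFD and KO chow the log2 fold change was 0.06 for Fgf21 (95% interval -1.38 to 1.50, adjusted p = 0.972) and 0.21 for Gdf15 (95% interval -0.89 to 1.31, adjusted p = 0.847). The interaction of genotype and diet, which is the diet difference in KO minus that in WT livers, was -2.79 (SE 0.87, adjusted p = 0.0354) for Fgf21 and -2.20 (SE 0.66, adjusted p = 0.0297) for Gdf15. Of all genes tested, 23.1% had a called interaction (8.63% above 0 and 14.5% below), and 2 hepatokines were above and 2 below 0 in this term. The Fgf21 term lost its call in 5 of the 12 fits that left out a library (-2.16 without WT CDAHFD replicate 2), and that of Gdf15 in 4 (-1.80 at the nearest to 0).

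The partners of these hormones were measured in the same livers. Klb, the FGF21 co-receptor, was at 22.6 to 66.3 CPM in WT chow, 11.7 to 13.2 CPM in WT CDAHFD, 10.03 and 23.6 CPM in KO chow and 7.97 to 16.2 CPM in KO CDAHFD. It fell by 1.45 on the log2 scale in KO chow (SE 0.42, adjusted p = 0.0161), by 1.91 in WT CDAHFD (SE 0.37, adjusted p = 9.02e-04) and by 1.91 in KO CDAHFD (SE 0.37, adjusted p = 8.43e-04). Thus, on the TMM scale, Fgf21 was higher and Klb lower in the same groups, with the KO chow library at 23.6 CPM inside the WT chow range of Klb. Of the 4 FGF receptors, Fgfr1 was higher in each comparison (0.86, 0.56 and 1.24), and Fgfr4, the main receptor of hepatocytes, was lower on CDAHFD in WT (-0.35, adjusted p = 0.0397) and KO livers (-0.36, adjusted p = 0.0317). Fgfr3 was called in KO CDAHFD, with 1.09. Of these 5 genes, 1 was higher and 1 lower in KO chow, 1 and 2 in WT CDAHFD, and 2 and 2 in KO CDAHFD. Scaled by library size alone, these counts were 1 and 0, 2 and 1, and 3 and 1. The KO chow call of Klb was thus lost. With each library left out in turn, 0 to 1 were higher in KO chow and WT CDAHFD, and 0 to 1 lower in KO chow. Gfral had 0 counts in every library, which allows up to 3 counts in each, and Ret, its partner, had at most 5, so neither was tested.

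The genes of the integrated stress response, from a list of 20, had 12 members higher and 2 lower for KO chow, 11 and 3 for WT CDAHFD, and 12 and 3 for KO CDAHFD. Their median log2 fold change was 1.64, 0.78 and 1.20. Atf3, a stress-induced transcription factor, was at 0.567 to 2.41 CPM in WT chow and at 40.5 to 68.5 CPM in every other library, with log2 fold changes of 4.76, 5.23 and 5.13. Phgdh, the entry enzyme of serine synthesis, rose by 4.97, 2.94 and 3.92 in the same order, and Asns, asparagine synthetase, by 2.82, 2.08 and 2.69. Slc7a11, the cystine transporter, had at most 2 counts in a WT chow library and was at least 244-fold higher in KO chow, 94.0-fold in WT CDAHFD and 67.4-fold in KO CDAHFD, against a floor of 3 counts per library; the medians of the list are the same with it at that bound. Ddit3 (CHOP) rose by 2.13, 1.21 and 1.84, and Trib3 by 2.03, 1.72 and 2.61. Atf4 itself was not called, at 0.26 (adjusted p = 0.274), -0.31 (adjusted p = 0.119) and -0.05 (adjusted p = 0.813), and neither was Chac1. Cth, cystathionine gamma-lyase, was lower in the CDAHFD groups (-1.20 and -0.94). In the interaction term 9 of the 20 were lower and 1 higher, beside 14.5% and 8.63% of all genes. The median of the 20 in this term was -1.02, beside 0.01 over all genes tested.

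**Figure D2:**
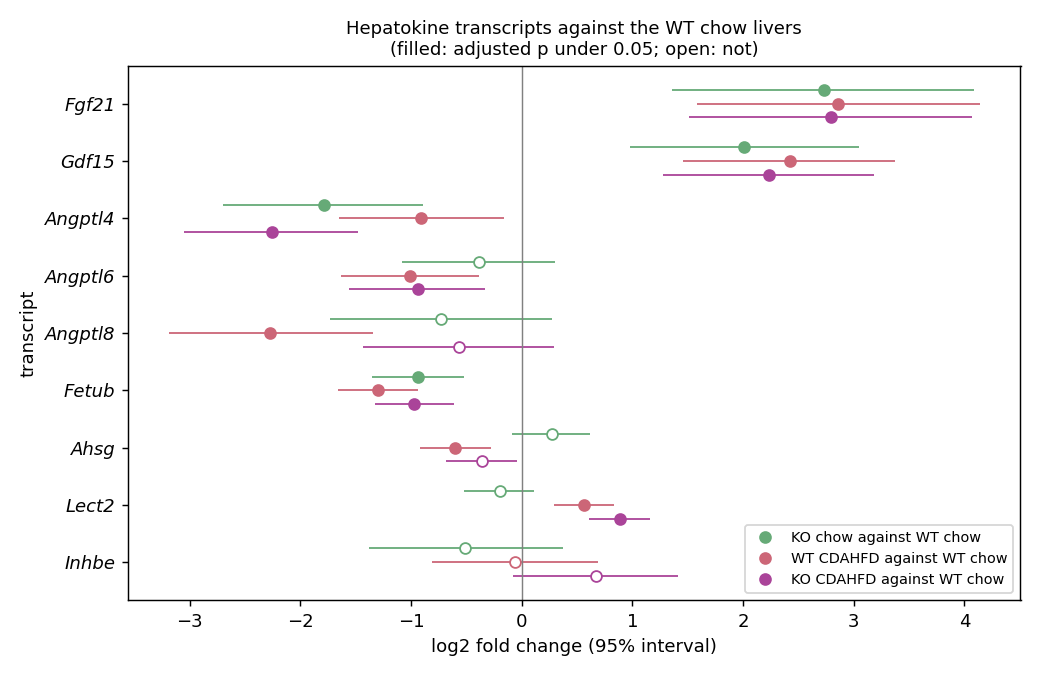
Log2 fold change of each hepatokine transcript against WT chow with its 95% interval, for KO chow, WT CDAHFD and KO CDAHFD, filled where the adjusted p is under 0.05. Fgf21 (2.73 to 2.86) and Gdf15 (2.01 to 2.42) stand on the right in all 3, Angptl4 and Fetub on the left, and Angptl8 is called in WT CDAHFD (-2.27) only.

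Angptl4 (ENSMUSG00000002289, chromosome 17 from 33773750 to 33781830) was lowest in KO livers. It was at 219, 120, 207 and 332 CPM in WT chow, 163, 128 and 60.6 CPM in WT CDAHFD, 58.1 and 68.3 CPM in KO chow and 37.6, 40.5 and 58.8 CPM in KO CDAHFD. No KO library reached the lowest WT chow library, while 2 of the WT CDAHFD libraries lay inside the WT chow range. Angptl4 fell by 1.79 on the log2 scale in KO chow (SE 0.42, adjusted p = 0.00446) and by 2.26 in KO CDAHFD (SE 0.36, adjusted p = 2.01e-04). The KO chow call was lost without KO chow replicate 1 (-1.52 to -1.98 over the libraries left out) and among the libraries with a clock score above 0 (-1.54, adjusted p = 0.0547). In WT CDAHFD the difference was -0.91 (SE 0.34, adjusted p = 0.0424), a call that was lost in 15 of 21 alternative fits, with values from -1.22 to -0.33. Between KO and WT livers on CDAHFD the libraries did not overlap, and the log2 fold change was -1.36 (95% interval -2.15 to -0.56, adjusted p = 0.212); only 0.357% of all genes tested were called there (0.0864% higher and 0.271% lower).

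The list of 20 PPARα targets, of which 19 were tested, was divided. In KO chow 5 were higher and 5 lower, in WT CDAHFD 6 and 5, and in KO CDAHFD 4 and 8, with medians of -0.05, -0.12 and -0.54. Library size alone gave 7 and 5, 9 and 4, and 7 and 5, so that the balance in KO CDAHFD turned around. Fabp1, a fatty acid binding protein, fell by 1.34, 1.71 and 2.09. It was lower in the KO groups, as Angptl4 was, and also in WT CDAHFD. There Angptl4 was at -0.91, a call lost in 15 of 21 alternative fits. Vnn1 fell by 2.51 in KO chow (adjusted p = 1.42e-04) and by 0.92 in KO CDAHFD (adjusted p = 0.0143) but rose by 1.77 in WT CDAHFD (adjusted p = 1.43e-04). The fatty acid transporter Cd36 was 6.50-fold, 18.5-fold and 14.1-fold higher, and Pdk4, an inhibitory kinase of pyruvate dehydrogenase, rose by 2.09, 2.49 and 2.92. Acot3 was higher in KO chow (2.74) and lower in WT CDAHFD (-1.90), with close paralogs that may share its reads. Cpt1a, which carries the first step of mitochondrial fatty acid import, was not called in any of the 3 (-0.32, -0.12 and -0.35). Creb3l3, a transcription factor that drives Fgf21, fell as well, and by 1.43 in KO CDAHFD livers.

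Angptl8 (ENSMUSG00000047822, chromosome 9 from 21835510 to 21837347) was low in WT livers on CDAHFD. Its WT chow libraries ranged widely, at 25.2, 42.0, 54.3 and 103 CPM, while those of WT CDAHFD were at 9.67, 14.0 and 11.3 CPM. KO chow livers had 41.1 and 26.7 CPM, and KO CDAHFD livers 45.6, 46.7 and 21.3 CPM. All 3 WT CDAHFD values lay below every other library of the study. Angptl8 fell by 2.27 on the log2 scale in WT CDAHFD (SE 0.43, adjusted p = 7.45e-04), a 4.82-fold lower level, and its differences in KO chow (-0.73, SE 0.46, adjusted p = 0.233) and in KO CDAHFD (-0.57, SE 0.40, adjusted p = 0.252) were not called. The interaction was 2.43 (SE 0.64, adjusted p = 0.0157), so that the diet difference in KO livers was 0.16 (95% interval -0.86 to 1.18) where that in WT livers was -2.27. It was not called without KO chow replicate 2 (adjusted p = 0.077). Between KO and WT livers on CDAHFD, Angptl8 differed by 1.70 (SE 0.44, adjusted p = 0.176), and in the libraries with a clock score above 0 by 1.98 (SE 0.21, adjusted p = 0.00348). In those libraries the KO chow and KO CDAHFD differences turned to 0.29 and 0.45, neither called, while WT CDAHFD stayed at -1.53 (adjusted p = 3.52e-04).

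In the list of 9 genes around lipoprotein lipase, 1 was higher and 4 were lower in KO chow, 1 and 7 in WT CDAHFD and 1 and 6 in KO CDAHFD. Scaled by library size alone, 2, 5 and 3 were lower and again 1 higher. The 1 that rose was Lpl, the lipase itself. It was at 14.6 to 38.9 CPM in WT chow, 446 to 560 CPM in WT CDAHFD, 211 and 286 CPM in KO chow and 429 to 481 CPM in KO CDAHFD, with log2 fold changes of 3.34, 4.41 and 4.23. Of the 12 macrophage markers, 10 were higher and none lower in KO chow, and 9 were higher and 1 (Timd4) lower in each CDAHFD group, and their part in the Lpl values was not tested. The hepatic lipase Lipc fell by 1.51, 1.28 and 1.42, and Apoc3, an inhibitor of lipoprotein lipase, by 0.69, 1.39 and 1.20.

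Genes of fatty acid synthesis and insulin response, from a list of 13 chosen for the known control of Angptl8, were lower in 5 cases in KO chow and in 11 in each CDAHFD group, and none was higher. Library size alone gave 3, 7 and 6 lower, with 1 higher in each KO group. Scd1, stearoyl-CoA desaturase, was at 1919 to 5080 CPM in WT chow, 1781 and 3371 CPM in KO chow, 26.1 to 89.6 CPM in WT CDAHFD and 89.7 to 116 CPM in KO CDAHFD. It was 58.4-fold lower in WT CDAHFD and 31.97-fold lower in KO CDAHFD, with a log2 fold change of -0.32 (adjusted p = 0.599) in KO chow. In the order KO chow, WT CDAHFD, KO CDAHFD, Thrsp fell by 2.48, 4.11 and 3.05, and Mlxipl, which encodes the carbohydrate sensor ChREBP, by 1.89, 1.38 and 1.38. Pklr, liver pyruvate kinase, fell by 1.89, 1.98 and 1.90. Srebf1 was lower in WT CDAHFD (-1.21) and KO CDAHFD (-0.74). Angptl8 was therefore low together with these genes in WT CDAHFD, while in KO CDAHFD 11 of the 13 were lower and Angptl8 was not called.

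Angptl6 (ENSMUSG00000038742, chromosome 9 from 20873808 to 20879727) was the hepatokine with the fewest counts per length in every group but WT chow. WT chow libraries held 11.2, 19.8, 17.8 and 12.8 CPM, WT CDAHFD 7.13, 6.27 and 9.64 CPM, KO chow 11.9 and 11.7 CPM and KO CDAHFD 9.63, 10.2 and 4.35 CPM. Both CDAHFD groups lay below the WT chow range and KO chow lay inside it. Angptl6 fell by 1.01 on the log2 scale in WT CDAHFD (SE 0.28, adjusted p = 0.00998) and by 0.94 in KO CDAHFD (SE 0.28, adjusted p = 0.014), and was at -0.39 (SE 0.32, adjusted p = 0.36) in KO chow. The KO CDAHFD call was lost in the libraries with a clock score above 0 (-0.65, adjusted p = 0.0838), and both calls were lost when library size alone was used (-0.45 and -0.35). Of its 1582 exon bases, 265 (16.8%) overlap A230050P20Rik on the opposite strand, which has 36606 counts against its 4724, and the libraries do not keep strand, so that reads there cannot be told apart. Among other angiopoietin-like genes, Angptl2 rose by 1.02, 1.16 and 1.46.

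**Figure D3:**
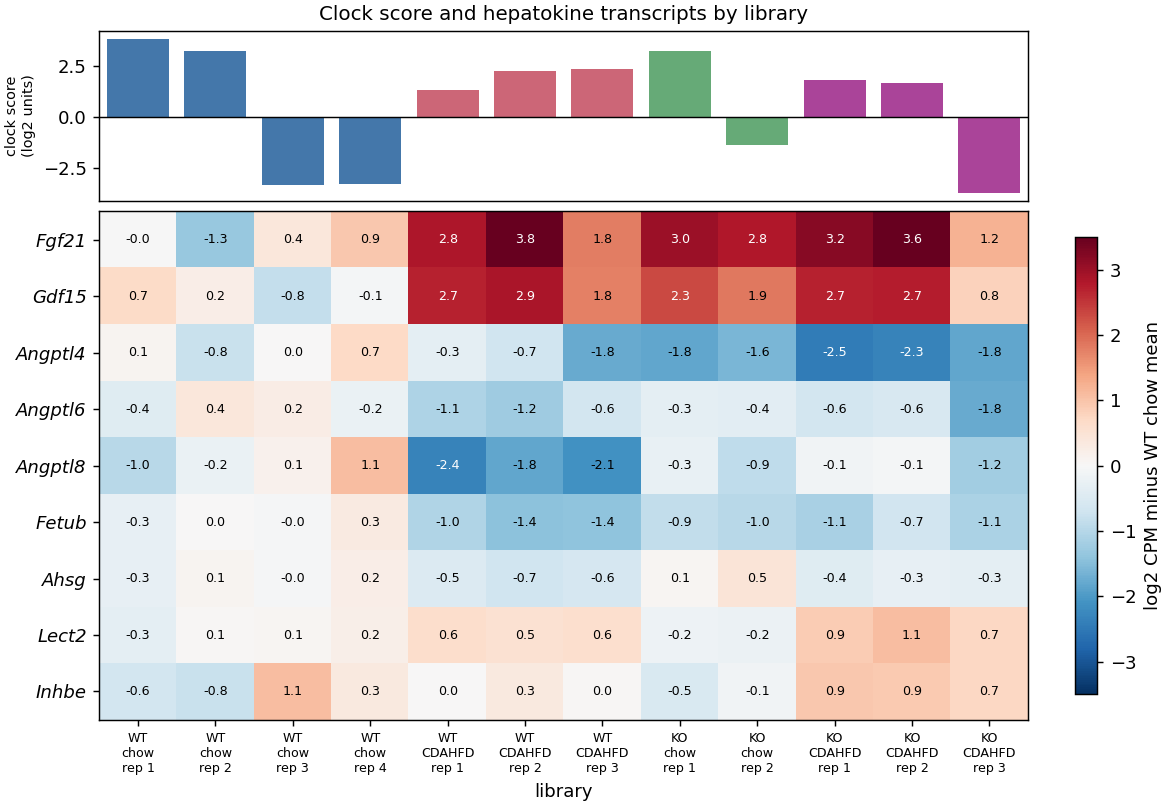
Clock score of each library in log2 units (bars, top) and log2 CPM of each hepatokine minus its WT chow mean (cells, bottom) for the 12 libraries. Fgf21 and Gdf15 are at 0.82 or more in every library outside WT chow, Inhbe is at -0.64 and -0.77 in the WT chow libraries with a score above 0 and at 1.07 and 0.33 in those below, and Lect2 is at 0.52 to 1.08 in the 6 CDAHFD libraries.

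Fetub (ENSMUSG00000022871, chromosome 16 from 22918334 to 22939778) and Ahsg (ENSMUSG00000022868, chromosome 16 from 22891277 to 22899449) lie next to each other on the plus strand, and they did not move alike. Fetub was at 465, 577, 556 and 704 CPM in WT chow, 277, 212 and 213 CPM in WT CDAHFD, 312 and 289 CPM in KO chow and 258, 358 and 266 CPM in KO CDAHFD. Every library outside WT chow was below every WT chow library. It fell by 0.94 in KO chow (SE 0.19, adjusted p = 0.00195), by 1.30 in WT CDAHFD (SE 0.17, adjusted p = 3.67e-05) and by 0.97 in KO CDAHFD (SE 0.17, adjusted p = 3.31e-04). The diet difference was not detectable in KO livers (-0.03, 95% interval -0.45 to 0.39), and the interaction was 1.27 (SE 0.26, adjusted p = 0.00332), a call that held in all 20 alternative fits. In the libraries with a clock score above 0, the KO chow difference was -0.74 (adjusted p = 0.0501).

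Ahsg was at 6825, 9013, 8220 and 9787 CPM in WT chow, 5986, 5139 and 5623 CPM in WT CDAHFD, 8895 and 11459 CPM in KO chow and 6284, 6887 and 6613 CPM in KO CDAHFD. Both CDAHFD groups were low and KO chow was as high as WT chow or higher. Ahsg fell by 0.60 in WT CDAHFD (SE 0.15, adjusted p = 0.00471), and with library size as the only scaling this was -0.03 (adjusted p = 0.814), where the median of all genes was 0.51. The differences in KO CDAHFD (-0.36, SE 0.15, adjusted p = 0.057) and KO chow (0.27, SE 0.16, adjusted p = 0.224) were not called, though library size alone gave a called 0.68 in KO chow (adjusted p = 9.99e-04) and turned the KO CDAHFD value to 0.26 (adjusted p = 0.0686). Between the genotype and the diet, KO chow was above WT CDAHFD by 0.87 (SE 0.17, adjusted p = 0.0134), a comparison in which 6.12% of all genes were called (2.71% higher and 3.42% lower) and 1 hepatokine in each direction. The groups did not overlap there for 6 hepatokines and for 48.6% of all genes. That call was lost without WT CDAHFD replicate 2 or without KO chow replicate 2. Of 3 other genes of the cystatin superfamily made in the liver, Hrg, histidine-rich glycoprotein, fell by 1.21, 1.05 and 0.94, and Kng1, kininogen, by 0.40, 0.97 and 0.63. Kng2 fell in WT CDAHFD and KO CDAHFD (0.58 and 0.53), and was not called in KO chow (-0.19, adjusted p = 0.276). Scaled by library size alone, 1, 2 and 1 of the 3 were lower.

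Lect2 (ENSMUSG00000021539, chromosome 13 from 56542464 to 56548502) followed the diet in both genotypes. The libraries held 96.4, 125, 127 and 139 CPM in WT chow and 185, 174 and 180 CPM in WT CDAHFD, against 108 and 104 CPM in KO chow and 222, 256 and 199 CPM in KO CDAHFD. All CDAHFD libraries were above all chow libraries, and KO CDAHFD was above WT CDAHFD. Lect2 rose by 0.56 in WT CDAHFD (SE 0.13, adjusted p = 0.00257) and by 0.89 in KO CDAHFD (SE 0.13, adjusted p = 7.38e-05), and was at -0.20 (SE 0.15, adjusted p = 0.293) in KO chow. Between KO CDAHFD and KO chow it rose by 1.09 (SE 0.16, adjusted p = 0.00265), or 2.13-fold, the 1 hepatokine called in a comparison where 6.19% of all genes were (3.76% higher and 2.44% lower). It was also lower in KO chow than in WT CDAHFD (-0.76, SE 0.15, adjusted p = 0.0145), a call lost without WT CDAHFD replicate 1 or without either KO chow library. Neither the difference between the genotypes on CDAHFD (0.33, adjusted p = 0.506) nor the interaction (0.53, SE 0.20, adjusted p = 0.0731) was called. These rises, in a liver transcript, went against the 9 hepatocyte markers, which were lower in the CDAHFD groups. Of its reported receptors, Met, the receptor of hepatocyte growth factor, fell by 0.90, 0.55 and 0.74. Scaled by library size alone, its calls in both CDAHFD groups were lost. Cd209a, of dendritic cells and monocytes, rose by 2.23, 1.65 and 1.59 from low levels in WT chow. These were 0.932 and 0.378 CPM with a clock score above 0, and 0.167 and 0.138 CPM below. Cd209a was at 1.50 and 2.30 CPM in KO chow, 1.02 to 1.63 CPM in WT CDAHFD and 0.951 to 1.68 CPM in KO CDAHFD. The lowest CDAHFD values were thus close to the WT chow library at 0.932 CPM. With each library left out in turn, 0 to 1 of the 3 receptors were higher in each comparison. Tie1, of endothelium, was not called (0.06, -0.39 and -0.27).

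Inhbe (ENSMUSG00000047492, chromosome 10 from 127348857 to 127354411) was the hepatokine that was not called in any of the 3 comparisons with WT chow. Its WT chow libraries were at 54.1, 49.4, 177 and 106 CPM, the latter 2 being those with a clock score below 0. It was at 84.6, 107 and 86.6 CPM in WT CDAHFD, 58.1 and 77.8 CPM in KO chow and 163, 159 and 139 CPM in KO CDAHFD. The WT chow libraries thus spanned the range of the other groups, and the KO CDAHFD libraries were the highest after WT chow replicate 3. KO chow livers differed from WT chow by -0.51 (SE 0.40, adjusted p = 0.346), WT CDAHFD livers by -0.06 (SE 0.35, adjusted p = 0.896) and KO CDAHFD livers by 0.67 (SE 0.34, adjusted p = 0.121). KO CDAHFD libraries lay above those of WT CDAHFD (0.73, adjusted p = 0.626) and of KO chow (1.17, adjusted p = 0.127) without overlap, where 20.8% and 39.1% of all genes did not overlap.

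Within the 8 libraries with a clock score above 0, Inhbe gave another picture. It rose by 0.84 in WT CDAHFD (SE 0.12, adjusted p = 4.99e-04) and by 1.64 in KO CDAHFD (SE 0.13, adjusted p = 2.10e-05) over the 2 WT chow libraries left, and was at 0.17 (adjusted p = 0.454) in KO chow. KO CDAHFD was above WT CDAHFD by 0.79 (SE 0.12, adjusted p = 0.02), where 0.633% of all genes were called. These libraries were chosen by the clock score after the values were seen, and time of day at collection is not given in the labels. The hepatokines called in these 8 libraries numbered 2 for KO chow (both higher), 8 for WT CDAHFD (4 in each direction) and 6 for KO CDAHFD (4 higher, 2 lower), beside 30.3%, 48.7% and 42.9% of all genes.

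**Figure D4:**
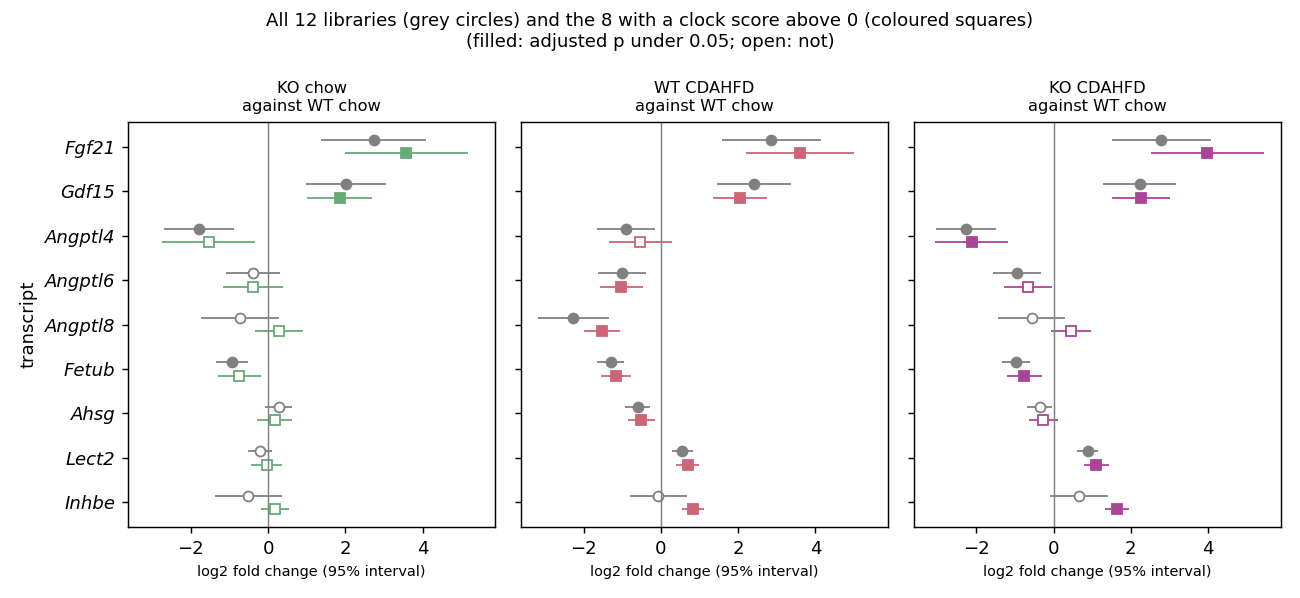
Log2 fold change of the hepatokines against WT chow with 95% intervals, from all 12 libraries (grey circles) and from the 8 with a clock score above 0 (coloured squares), filled where called. Inhbe moves from -0.06 to 0.84 in WT CDAHFD and from 0.67 to 1.64 in KO CDAHFD, while Fgf21, Gdf15 and Lect2 keep their direction in the CDAHFD panels.

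Other members of the activin family moved in both directions. Inhbc, the activin C subunit and closest relative of Inhbe, was at 91.3 to 113 CPM in WT chow and fell by 0.92 in KO chow and by 1.29 in WT CDAHFD and was also called lower in KO CDAHFD (adjusted p = 2.07e-04). Inhba fell by 1.02, 1.02 and 0.84. Of the 9 tested genes of activin subunits, receptors and binding proteins, 2 were higher and 4 lower in KO chow, 3 and 3 in WT CDAHFD, and 2 and 4 in KO CDAHFD. Scaled by library size alone, these counts were 2 and 1, 5 and 1, and 4 and 2. Fst, follistatin, which binds activins, rose in KO chow (1.20, adjusted p = 0.0248) and in WT CDAHFD (1.10, adjusted p = 0.0172). It was not called in KO CDAHFD (-0.52, adjusted p = 0.245), and its interaction was -2.82 (adjusted p = 0.00218). In WT chow Fst was at 9.01 and 10.9 CPM in the libraries with a clock score above 0, and at 3.60 and 3.39 CPM in those below. It was at 11.9 to 17.2 CPM in WT CDAHFD, 17.05 and 13.9 CPM in KO chow and 4.01 to 5.71 CPM in KO CDAHFD. The part of the clock phase in these differences was not tested. The receptor Acvr2a fell by 0.58, 0.74 and 0.96, and Inha was raised in WT CDAHFD (1.63) and KO CDAHFD (2.65) at levels of 0.471 to 1.39 CPM.

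**Figure D5:**
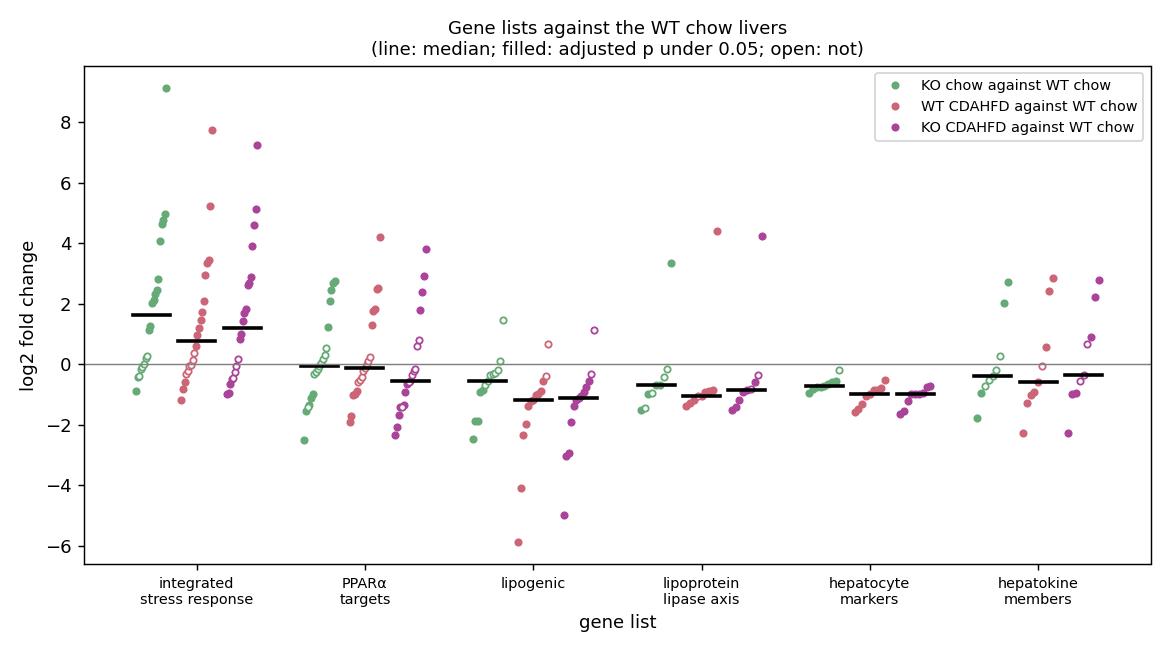
Log2 fold changes against WT chow of single genes (points, filled where called) and their medians (lines) for 5 gene lists and the 9 hepatokines, with a colour for each of the other 3 groups. The stress response list has its median at 1.64, 0.78 and 1.20, and the lipogenic list at -0.56, -1.17 and -1.11.

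Between KO and WT livers on CDAHFD, no hepatokine was called by edgeR, where 0.357% of all genes were, while 3 of the 9 (Angptl4, Angptl8 and Lect2) and 1523 of the 17358 genes had an unadjusted p under 0.05. DESeq2 called 2 and limma-voom 0. The number of hepatokines called in this comparison was 0 to 2 over the alternatives run, and 5 of the 9 did not overlap between the groups, beside 20.8% of all genes. The libraries within a group were not evenly placed. KO CDAHFD replicate 3 was the lowest of its group for 6 of the 9 hepatokines, and WT chow replicate 4 was the highest of its group for 6.

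The genes whose profile over the 12 libraries lay nearest to each hepatokine were found among 12896 candidates whose mean count was 50 or more, by the root mean square distance of log2 CPM centred on the gene's mean. For Fgf21 these were Kif11 (0.61), Mxd3 and Gadd45b (0.63 each), against its own spread of 1.55, and for Gdf15 Egr1 and Ly6e (0.47 each) and Btg2 (0.48). Angptl4 lay nearest to Rab30 (0.39), Ctif (0.41) and Eci2 (0.42), and Angptl8 to Mid1ip1 and 1810017P11Rik (0.51 each) and N4bp2l1 (0.59). The profile of Angptl6 was closest to 2310039H08Rik (0.19), Agxt (0.20) and Pqlc1 (0.23). Fetub stood near Gm20319 (0.15), Ttc36 (0.16) and Fah (0.17), Ahsg near Itih2 (0.08), Hspa9 and Kin (0.13 each), and Lect2 near Rgl2 (0.20), Tmc4 and Tctn1 (0.21 each). Among the hepatokines themselves the smallest distances were between Angptl6 and Fetub (0.43), Fetub and Ahsg (0.44), and Lect2 and Inhbe and Angptl6 and Ahsg (0.45 each). A distance is also small where both genes vary little. The spread of Angptl6 was 0.58, that of Fetub 0.56, that of Lect2 0.44 and that of Ahsg 0.34. The distance between Angptl6 and Fetub was below both of their spreads. Those of Ahsg to Fetub and to Angptl6 were above the spread of Ahsg and below that of the other gene. A small distance alone does not show a shared profile, and how far these profiles are shared was not tested. Fgf21 and Gdf15 were 0.77 apart, against larger spreads of 1.55 and 1.22.

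Other proteins that the liver secretes, from a list of 17 of which 16 were tested, gave 1 higher and 4 lower in KO chow, 2 and 8 in WT CDAHFD, and 3 and 7 in KO CDAHFD. The balance depended on the scaling, since library size alone gave 3 higher and 2 lower, 5 and 4, and 4 and 3. Gpx3, the plasma glutathione peroxidase, rose by 1.72, 2.39 and 2.41. Enho, which encodes adropin, fell by 1.42, 1.34 and 1.29, and Igf1 by 0.76, 1.20 and 1.35. Hamp, hepcidin, was lower in WT CDAHFD (-1.38) and KO CDAHFD (-1.32) and was at 0.31 (adjusted p = 0.373) in KO chow. Serpinb1a was higher in KO CDAHFD alone of the 3 comparisons (2.04, adjusted p = 6.13e-04), with an interaction of 2.27 (adjusted p = 0.0182).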

How the data were processed

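Liver poly-A RNA was sequenced in non-directional libraries. According to the labels and the study's methods, the authors checked reads with FastQC 0.11.5 and aligned them to GRCm 38 with STAR 2.7.3a. The deposited table gives raw read counts for each Ensembl gene, and the counting program and annotation release are not given in the sources used here. The table holds 55357 genes, 30104 with a count, and GENCODE M21 gave symbols for 94.1% of identifiers. Groups were taken from titles. The methods state 3 mice per group, which differs from the labels; the labels were used. The labels do not tie each library to a mouse of its own, so p-values measure the spread between these libraries, which was well above sampling noise within groups (chi-square per gene 18.4 to 102).

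Counts were filtered (filterByExpr, 17358 genes), scaled by TMM and tested by the quasi-likelihood model of edgeR 4.0.16 in R 4.3.3 over the 12 libraries with 1 mean per group. SEs are the size of the fold change over the square root of F, p-values were adjusted by Benjamini-Hochberg over all genes tested, and intervals are at 95%. CPM uses TMM library sizes, and FPKM divides by the union of exons. A count of 0 allows 3 counts per library, and such limits cover counting error only. The step was tested on simulated counts with 200 changed genes. Alternatives were library size only, RLE factors, DESeq2 1.42.0, limma-voom (limma 3.58.1), no count filter, the compared groups only, each library left out, a replicate block, a clock score as covariate, and, added after seeing the data, the 8 libraries with a clock score above 0. The members, gene lists, clock score and tests were chosen with earlier results of these data known. All 9 members are named in each comparison, list genes for their pathway role or as the 2 called genes with the largest change, and 3 nearest genes per called member. Promoters are RefSeq, GRCm38.p6. Figures used Python with matplotlib. Results for some genes of the lists are not reported here.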

Additional observations from a re-analysis of the deposited data

Results flagged for a closer look

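The effect of CDAHFD differed between the genotypes for 4 hepatokines by the test of the interaction (edgeR's quasi-likelihood test, Benjamini-Hochberg adjusted over 17358 genes, of which 23.1% were called). It was -2.79 for Fgf21 (adjusted p = 0.0354, 1.20e-04 to 0.106 over the alternatives), where the diet difference was 2.86 in WT and 0.06 in KO livers. For Gdf15 it was -2.20 (adjusted p = 0.0297, 1.47e-04 to 0.108 over the alternatives), with 2.42 in WT and 0.21 in KO livers. For Angptl8 it was 2.43 (adjusted p = 0.0157, 3.49e-05 to 0.077), with -2.27 in WT and 0.16 in KO livers. For Fetub it was 1.27 (adjusted p = 0.00332, 3.35e-05 to 0.0289), with -1.30 in WT and -0.03 in KO livers. The 4 terms rest on the same 12 libraries, among them the 2 of KO chow. No hepatokine had a WT chow library far from the other 3 by Dixon's test, and groups of 2 or 3 libraries were not tested. That test looks for 1 outlying library, so it cannot show a split of 2 against 2. Inhbe was split in that way by the clock score in WT chow, at 54.1 and 49.4 CPM above 0 and at 177 and 106 CPM below.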

How the results depend on the processing

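Fgf21 and Gdf15 kept their direction and their call against WT chow in all 21 alternatives, Fetub in all but 1 and Lect2 in both CDAHFD comparisons in all. With library size only, where the median of all genes was 0.40 to 0.57 against WT chow and 0.20 between KO CDAHFD and KO chow, the called hepatokines in WT CDAHFD fell from 8 to 5, and the log2 fold change turned to 0.01 for Angptl6 and 0.21 for Lect2 in KO chow, 0.51 for Inhbe in WT CDAHFD, 0.06 for Angptl8 and 0.26 for Ahsg in KO CDAHFD, and 0.17 for Fetub between KO CDAHFD and KO chow (0.00 with RLE factors). In the 8 libraries with a clock score above 0, called hepatokines in KO chow went from 4 to 2 and between KO chow and WT CDAHFD from 2 to 4. There Angptl8 turned to 0.29 and Inhbe to 0.17 in KO chow, Inhbe to 0.84 in WT CDAHFD, Angptl8 to 0.45 in KO CDAHFD, Fgf21 to 0.37 and Gdf15 to 0.21 between KO and WT CDAHFD, and the interaction to -0.04 for Angptl4 and 0.07 for Ahsg. Inhbe in WT CDAHFD was also 0.13 by limma-voom, 0.00 with every gene with a count, 0.15 with a replicate block and 0.34 with the clock score as covariate, which gave 0.01 for Gdf15 between KO and WT CDAHFD. By limma-voom, Angptl6 was -0.01 in that comparison, Fgf21 -0.25 and Gdf15 -0.00 between KO CDAHFD and KO chow, and Fgf21 0.09 between KO chow and WT CDAHFD. The cause of these shifts was not tested.

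Between KO and WT CDAHFD, 62 genes and 0 hepatokines were called. DESeq2 called 240 genes and 2 hepatokines, limma-voom 100 genes, every gene with a count 215 and 2, only the groups compared 154 and 2, the clock covariate 180 and 1, and the libraries with a clock score above 0 gave 113 and 2. Between KO CDAHFD and KO chow, 1075 genes and 1 hepatokine were called, against 1886 and 3 by DESeq2, 2 hepatokines by limma-voom, 3 with every gene with a count, 581 and 2 with only the groups compared, 1738 and 3 with the clock covariate, and 600 and 2 with a clock score above 0. Between KO chow and WT CDAHFD, 1063 genes were called, against 2042 by DESeq2, 1985 with only the groups compared, 2558 with the clock covariate and 2680 with a clock score above 0.

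With each library left out in turn, the genes called ranged from 4320 to 7128 in KO chow against WT chow, from 26 to 75 between KO and WT CDAHFD, from 233 to 1437 between KO CDAHFD and KO chow, and from 260 to 1469 between KO chow and WT CDAHFD. The hepatokines called ranged from 1 to 2 between KO CDAHFD and KO chow, from 0 to 3 between KO chow and WT CDAHFD and from 2 to 5 in the interaction. Fold changes that changed sign ranged from -0.25 to 0.43 for Inhbe in WT CDAHFD and from -0.21 to 0.16 for the Ahsg interaction. Between KO and WT CDAHFD they were -0.53 to 0.57 for Fgf21, -0.46 to 0.22 for Gdf15 and -0.14 to 0.37 for Angptl6. Between KO CDAHFD and KO chow they were -0.40 to 0.50 for Fgf21, -0.06 to 0.62 for Gdf15, -0.12 to 0.51 for Angptl8 and -0.20 to 0.06 for Fetub, and between KO chow and WT CDAHFD -0.50 to 0.50 for Fgf21.

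Replicate numbers did not pair the libraries (correlations of same-numbered libraries -0.24 to 0.27). With the number as a replicate block, 640 genes were called between KO CDAHFD and KO chow, and the calls of the Fgf21 interaction and of Angptl4 in WT CDAHFD were lost. The 2 libraries of KO chow limit every comparison with that group.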
